A study of Mus musculus with 7 samples.

Results

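The E proteins and their Id inhibitors were examined as 6 genes, 3 E proteins (Tcf12, Tcf3 and Tcf4) and 3 inhibitors (Id3, Id2 and Id1). Each was matched by its symbol to 1 row of the 16734 genes in the deposited table, and 5 of the 6 reached the mean of 1 RPKM needed for a test. RPKM are reads over a gene's exons divided by that gene's exon length and the library's mapped read total, so levels of different genes can be compared per length. Polyadenylated RNA of whole thymus, made into single cell suspensions, was sequenced from mice aged 4 weeks. The 7 libraries were 2 of Ikaros ZnF4-/- mutants, 2 of Ikaros ZnF1-/- mutants and 3 of wild type (wt) C57BL/6 mice, and the strain background of the mutants is not given in the labels. Ikaros, the product of Ikzf1, is a zinc finger transcription factor of lymphocytes, and ZnF1 and ZnF4 name the finger that is mutated on both copies of the gene. Replicate 1 of each group had 76 bp reads, and ZnF4-/- replicate 2, ZnF1-/- replicate 2, wt 2A and wt 2B had 50 bp reads.

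E proteins are basic helix-loop-helix transcription factors that bind as dimers to the E-box, CANNTG. Id proteins share the helix-loop-helix but lack the basic region, so an E protein paired with an Id protein does not bind DNA. In the thymus, Tcf3 and Tcf12 drive early T cell genes such as Rag1 and Ptcra and hold cells at checkpoints, and signals from the T cell receptor raise Id3, which releases that hold.

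Promoter sequences are shown for Tcf3 and Id3, whose levels moved together from library to library, and for Id2, which moved differently from both. RefSeq promoter windows on build GRCm38.p6, 250 bases before to 50 bases after the annotated start, matched 4 of the 6 genes. They lie at chr10:80433586-80433885 on the minus strand for Tcf3, chr4:136143572-136143871 on the plus strand for Id3 and chr12:25096043-25096342 on the minus strand for Id2. Capitals mark a match to CANNTG.
Tcf3: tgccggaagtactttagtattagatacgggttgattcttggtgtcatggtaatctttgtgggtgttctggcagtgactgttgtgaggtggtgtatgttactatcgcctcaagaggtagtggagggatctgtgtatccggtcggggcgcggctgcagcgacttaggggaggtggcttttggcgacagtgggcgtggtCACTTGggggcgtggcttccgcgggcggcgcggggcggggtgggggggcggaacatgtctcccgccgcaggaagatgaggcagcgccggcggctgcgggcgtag
Id3: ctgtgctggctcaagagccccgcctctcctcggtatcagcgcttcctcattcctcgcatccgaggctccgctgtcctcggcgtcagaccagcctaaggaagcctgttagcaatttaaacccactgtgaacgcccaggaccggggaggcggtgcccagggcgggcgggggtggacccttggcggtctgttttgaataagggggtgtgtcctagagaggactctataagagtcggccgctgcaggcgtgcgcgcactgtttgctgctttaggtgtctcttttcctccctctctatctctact
Id2: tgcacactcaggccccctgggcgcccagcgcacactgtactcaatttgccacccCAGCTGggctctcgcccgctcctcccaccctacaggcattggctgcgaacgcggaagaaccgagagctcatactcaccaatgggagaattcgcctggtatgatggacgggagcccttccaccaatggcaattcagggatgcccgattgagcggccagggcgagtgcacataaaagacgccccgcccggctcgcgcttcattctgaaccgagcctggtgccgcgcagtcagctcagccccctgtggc
The Tcf3 window held 1 E-box, CACTTG, at position -54 from the start, and the Id2 window held 1, CAGCTG, at -196. The Id3 window held 0, which says only that these letters are not in this window. The 3 windows of Tcf12 held 1, 2 and 1. CANNTG, which reads the same pattern on both strands, was present in 72.3% of the 32851 RefSeq windows. TGGGAA, the core bound by Ikaros, was searched on both strands, was found in none of these 6 windows and was present in 25.6% of all windows.

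The sequencing batches differed in more than read length. The 76 bp libraries had 90.57 to 109.21 RPKM of Xist and at most 0.01 RPKM of the Y-linked Ddx3y. The 50 bp libraries had at most 0.03 RPKM of Xist and 13.2 to 17.44 RPKM of Ddx3y, so batch and sex cannot be told apart. Depth estimated from the steps between low RPKM values was 6310000 reads in ZnF4-/- replicate 1, 14280000 in ZnF1-/- replicate 1 and 20130000 in wt replicate 1, and it could not be estimated for the 50 bp libraries. Ikzf1 itself was at 238.09 and 257.02 RPKM in ZnF4-/- and at 183.02 and 194.30 RPKM in ZnF1-/-, against 141.71, 175.43 and 169.51 RPKM in wt. These sums over exons do not show which finger is mutated, so they are no check of the labels. Double-positive thymocyte markers (Cd4, Cd8a, Cd8b1, Rag1, Rag2 and Dntt) summed to 2373 to 2916 RPKM in ZnF4-/-, 3237 to 3657 in ZnF1-/- and 2923 to 3670 in wt, so the labelled tissue carried its defining transcripts in each library. Both ZnF4-/- sums lay below every ZnF1-/- and wt sum. Both comparisons with wt use the same 3 wt libraries, and in bulk RNA fewer cells of a type and less RNA per cell cannot be told apart.

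At the adjusted threshold of 0.05, limma called 0 of the 5 tested genes in each of the 3 comparisons. Over all genes it called 2.54% in ZnF4-/- against wt, 0.0857% in ZnF1-/- against wt and 2.34% in ZnF4-/- against ZnF1-/-. At an unadjusted p under 0.05, limma called Tcf4 in ZnF4-/- against wt, where 10.1% of genes were called, 0 of the 5 in ZnF1-/- against wt, where 3.85% were, and Id2 in ZnF4-/- against ZnF1-/-, where 9.17% were. With the replicate number as a block, limma called 1 of the 5, Tcf4, as higher in ZnF4-/- than in wt, where 8.22% of genes were called in either direction and 6.1% as higher. The blocked fit called 0 of the 5 in ZnF1-/- against wt and in ZnF4-/- against ZnF1-/-, where 0.876% and 7.29% of genes were called. At an unadjusted p under 0.05 it held Tcf4 in ZnF1-/- against wt, with 8.73% of genes, and Id2 in ZnF4-/- against ZnF1-/-, with 20.2%.

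**Figure D1:**
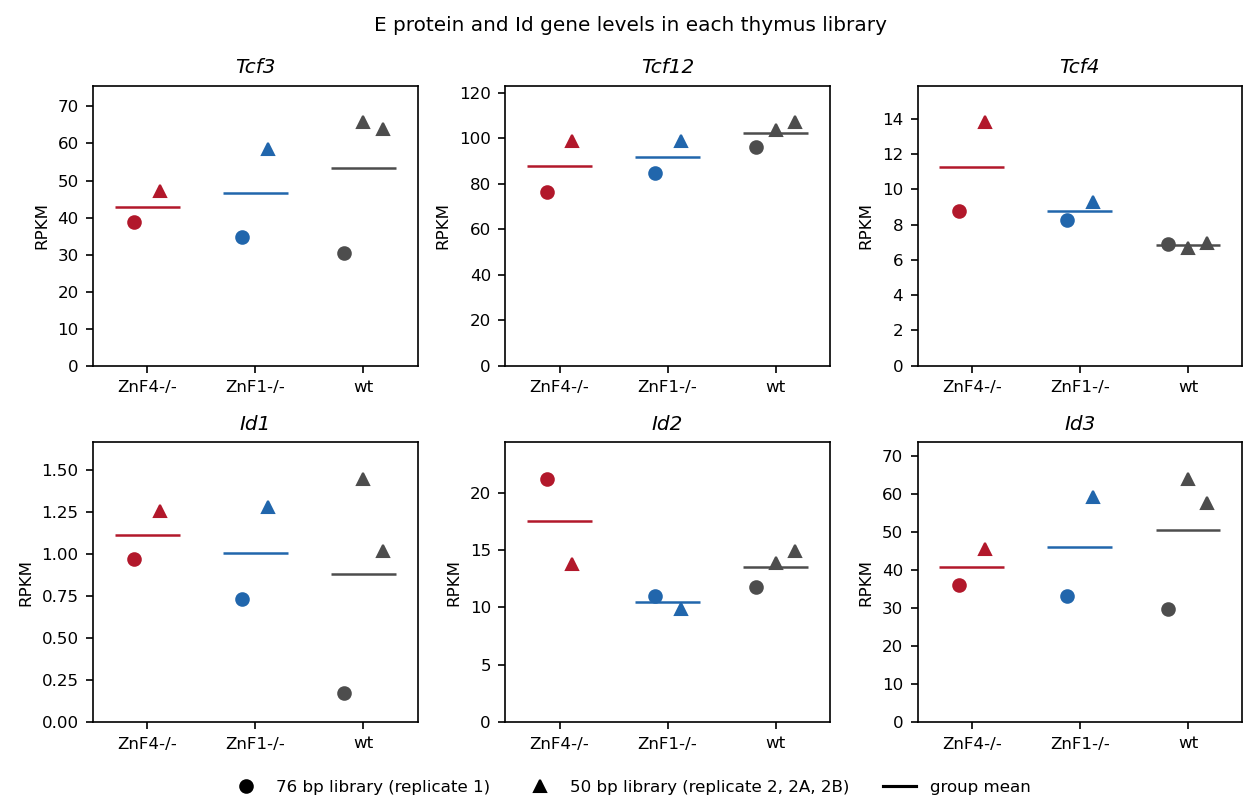
RPKM of each E protein and Id gene in the 7 libraries, with the groups on the x axis, circles for 76 bp libraries, triangles for 50 bp libraries and lines for group means. Tcf4 was higher in all 4 mutant libraries than in the 3 wt libraries, and Tcf3 and Id3 were lower in the 76 bp than in the 50 bp library of every group.

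Tcf12, which encodes the E protein HEB, was the most abundant of the 6 genes in all 7 libraries. It lies on chromosome 9 at 71692059 to 71959626 on the minus strand (mm9), and its span holds Rpl15-ps2 on the opposite strand. Its level was 76.36 and 98.85 RPKM in ZnF4-/- and 84.62 and 98.91 RPKM in ZnF1-/-, against 96.00, 103.56 and 106.86 RPKM in wt. In both batches the mutant libraries lay below wt, but the groups overlapped because the 50 bp mutant libraries were above the 76 bp wt library. The log2 difference from wt was -0.23 ± 0.18 in ZnF4-/- (limma adjusted p = 0.879) and -0.16 ± 0.18 in ZnF1-/- (limma adjusted p = 1.00). Within batches it was -0.33 at 76 bp and -0.09 at 50 bp in ZnF4-/-, and -0.18 and -0.09 in ZnF1-/-.

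Tcf3, which encodes the E protein variants that arise by splicing of the E2a gene, lies on chromosome 10 at 79872259 to 79896392 on the minus strand (mm9). Its level was 38.70 and 47.18 RPKM in ZnF4-/- and 34.86 and 58.44 RPKM in ZnF1-/-, against 30.45, 65.67 and 63.80 RPKM in wt. The wt libraries were both the lowest and the highest, so the groups overlapped fully. The log2 difference from wt was -0.23 ± 0.38 in ZnF4-/- (limma adjusted p = 0.978) and -0.16 ± 0.38 in ZnF1-/- (limma adjusted p = 1.00). Within batches the direction was opposite: ZnF4-/- was 0.34 higher than wt at 76 bp and -0.45 from wt at 50 bp, and ZnF1-/- was 0.19 higher and -0.15 from wt.

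Tcf4, an E protein needed by plasmacytoid dendritic cells, was the least abundant E protein. It lies on chromosome 18 at 69503800 to 69847621 on the plus strand (mm9). Its level was 8.78 and 13.80 RPKM in ZnF4-/- and 8.28 and 9.28 RPKM in ZnF1-/-, against 6.93, 6.70 and 6.97 RPKM in wt. All 4 mutant libraries lay above the 3 wt libraries, as was true of 2.84% of tested genes. ZnF4-/- alone lay above wt without overlap for 12.5% of tested genes, and ZnF1-/- alone for 6.85%. The wt libraries stayed close to each other across both batches, with a mean of 6.87 ± 0.146 RPKM (SD, n = 3), against 11.3 ± 3.55 in ZnF4-/- and 8.78 ± 0.707 in ZnF1-/- (SD, n = 2 each).

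The log2 difference of Tcf4 in ZnF4-/- against wt was 0.65 ± 0.20 (limma adjusted p = 0.234), and with the replicate block it was 0.68 ± 0.15 (limma adjusted p = 0.029). It was higher in ZnF4-/- in both batches, by 0.32 at 76 bp and by 0.96 at 50 bp. The blocked call was lost without ZnF4-/- replicate 2 (0.37, adjusted p = 0.213), without wt 2A (0.63, adjusted p = 0.0715) and without wt 2B (0.66, adjusted p = 0.121). It was kept without each of the other 4 libraries, with adjusted p between 0.00254 and 0.0487. In ZnF1-/- against wt the difference was 0.33 ± 0.20 (limma adjusted p = 1.00), and 0.37 with the block (limma adjusted p = 0.515), with 0.24 at 76 bp and 0.42 at 50 bp. ZnF4-/- against ZnF1-/- gave 0.31 ± 0.22 (limma adjusted p = 0.897), so the mutants were not shown to differ.

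Markers of other cells were measured beside Tcf4. The 6 plasmacytoid dendritic cell markers (Siglech, Spib, Pacsin1, Cox6a2, Ccr9 and Irf8) summed to 184.1 to 221.7 RPKM in ZnF4-/-, 276.2 to 285.6 in ZnF1-/- and 303.8 to 348.7 in wt, most of it Ccr9, which thymocytes also express. Of the 4 tested, 1 (Ccr9) fell in ZnF4-/- against wt with the block (limma adjusted p = 0.011), and 0 did without it. The blocked Ccr9 call was lost without wt 2B (limma adjusted p = 0.0641). Siglech, the most specific of them, was at 0.16 and 0.06 RPKM in ZnF4-/- and 1.32 and 0.75 RPKM in ZnF1-/-, against 0.53, 0.96 and 0.53 RPKM in wt. Irf8 was at 4.62 and 4.78 RPKM in ZnF4-/- and 5.64 and 5.54 RPKM in ZnF1-/-, against 3.5, 4.83 and 4.09 RPKM in wt. Spib was at 1.99 and 2.0 RPKM in ZnF4-/- and 2.19 and 1.78 RPKM in ZnF1-/-, against 1.78, 2.15 and 2.34 RPKM in wt. Cox6a2 was at 0.24 and 0.31 RPKM in ZnF4-/- and 0.21 and 0.7 RPKM in ZnF1-/-, against 0.37, 0.9 and 0.64 RPKM in wt. Pacsin1 was at 5.5 and 6.64 RPKM in ZnF4-/- and 6.09 and 8.31 RPKM in ZnF1-/-, against 5.65, 8.26 and 8.5 RPKM in wt. Siglech was thus lower in ZnF4-/- than in the other groups, and Cox6a2 was lower than in wt, both too low to be tested. Pacsin1 in ZnF4-/- lay below wt within each batch, and Irf8 and Spib in ZnF4-/- lay within the wt range. The 6 macrophage markers (Csf1r, Cd68, Lyz2, Emr1, C1qa and C1qb) summed to 87.56 to 113.6 RPKM in ZnF4-/-, 40.88 to 63.5 in ZnF1-/- and 49.51 to 69.38 in wt. Most of this was Lyz2, at 56.79 and 73.87 RPKM in ZnF4-/-, against 39.86, 39.19 and 26.52 RPKM in wt. Of the 6, only Lyz2 lay above every wt library in both ZnF4-/- libraries. Cd68 in ZnF4-/-, at 8.62 and 7.1 RPKM, lay within the wt range of 6.98 to 10.01 RPKM. The 5 B cell markers (Cd79a, Cd79b, Pax5, Ebf1 and Ms4a1) summed to 13.0 to 16.63 RPKM in ZnF4-/-, 26.19 to 35.66 in ZnF1-/- and 17.59 to 22.65 in wt. Cd79b made up most of each of these sums. Cd79a was at 1.83 and 1.93 RPKM in ZnF4-/- and 0.38 and 0.47 RPKM in ZnF1-/-, against 1.4, 1.74 and 1.62 RPKM in wt. Ebf1 and Ms4a1 were also lowest in both ZnF1-/- libraries, and the Pax5 groups overlapped. With the block, Cd79a fell (limma adjusted p = 0.0204) and Cd79b rose (limma adjusted p = 0.0186) in ZnF1-/- against wt. Both calls were lost without wt replicate 1, wt 2B or either ZnF1-/- library. With the block, C1qa rose among the 6 tested macrophage markers (limma adjusted p = 0.023) and Cd79b fell among the 2 tested B cell markers (limma adjusted p = 0.0253) in ZnF4-/- against wt, and 0 of either list was called without it. Over all tested genes, 6.1% rose and 2.12% fell with the block in that comparison. Leaving out 1 library at a time under the block, the C1qa call was lost without wt replicate 1 and without wt 2B (highest limma adjusted p = 0.0853), and the Cd79b call without each wt library and without ZnF4-/- replicate 2 (highest limma adjusted p = 0.127). The part of plasmacytoid dendritic cells, macrophages and B cells in the Tcf4 levels was not tested.

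Id3, the main Id gene of thymocytes and a target of T cell receptor signals, lies on chromosome 4 at 135699412 to 135701670 on the plus strand (mm9). Its level was 35.91 and 45.36 RPKM in ZnF4-/- and 33.02 and 59.13 RPKM in ZnF1-/-, against 29.75, 63.92 and 57.42 RPKM in wt. As with Tcf3, wt held both the lowest and the highest library. The log2 difference from wt was -0.24 ± 0.38 in ZnF4-/- (limma adjusted p = 0.977) and -0.11 ± 0.38 in ZnF1-/- (limma adjusted p = 1.00). ZnF4-/- was 0.27 higher than wt at 76 bp and -0.41 from wt at 50 bp, and ZnF1-/- was 0.15 higher and -0.03 from wt.

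Id2, which NK cells and innate lymphoid cells require, lies on chromosome 12 at 25778666 to 25780957 on the minus strand (mm9). Its level was 21.24 and 13.79 RPKM in ZnF4-/- and 11.04 and 9.83 RPKM in ZnF1-/-, against 11.77, 13.91 and 14.91 RPKM in wt. ZnF4-/- replicate 1 stood above every other library, and ZnF4-/- replicate 2 lay within the wt range. Both ZnF1-/- libraries lay below all 3 wt libraries, as did 6.99% of tested genes, and below both ZnF4-/- libraries, where 15.2% of genes were higher in ZnF4-/- without overlap. ZnF4-/- against ZnF1-/- gave a log2 difference of 0.69 ± 0.23 (unadjusted p = 0.0188, limma adjusted p = 0.315), with 0.91 at 76 bp and 0.47 at 50 bp. Against wt it was 0.34 ± 0.21 in ZnF4-/- (limma adjusted p = 0.779) and -0.36 ± 0.21 in ZnF1-/- (limma adjusted p = 1.00). Within batches ZnF4-/- differed from wt by 0.83 at 76 bp and -0.06 at 50 bp, and ZnF1-/- by -0.09 and -0.53.

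With the block and without ZnF4-/- replicate 2, Id2 passed in ZnF4-/- against wt (0.70, limma adjusted p = 0.0321) and against ZnF1-/- (1.04, limma adjusted p = 0.00366), which leaves the 76 bp library as the only one of its group and assumes that it varies like the other groups. With both ZnF4-/- libraries and without wt replicate 1, Id2 also passed with the block in ZnF4-/- against ZnF1-/- (0.69, limma adjusted p = 0.0172). With the block and without ZnF4-/- replicate 1, the differences were 0.002 (limma adjusted p = 0.996) and 0.34 (limma adjusted p = 0.275). The 6 NK and innate lymphoid markers (Ncr1, Klrb1c, Klre1, Gzma, Eomes and Klra1) summed to 40.41 to 44.82 RPKM in ZnF4-/-, 23.17 to 25.26 in ZnF1-/- and 23.72 to 32.75 in wt, nearly all of it Gzma. Gzma was the only one tested, and it was higher in ZnF4-/- than in ZnF1-/- by 0.75 with the block (limma adjusted p = 0.0359; lost without either ZnF1-/- library or ZnF4-/- replicate 1, up to 0.372) and was not called without it. Ncr1, the most specific of them, was at 0.21 and 0.03 RPKM in ZnF4-/- and at 0.24 and 0.09 RPKM in ZnF1-/-, against 0.12 to 0.24 RPKM in wt. Eomes, a factor of NK cells and of memory-like T cells, was at 1.7 and 2.66 RPKM in ZnF4-/- and 0.23 and 0.18 RPKM in ZnF1-/-, against 0.21, 0.4 and 0.28 RPKM in wt, and was too low to be tested. Klra1, an NK receptor, was at 0.28 and 0.2 RPKM in ZnF4-/- and 0.04 and 0.03 RPKM in ZnF1-/-, against 0.18, 0.19 and 0.13 RPKM in wt. Klrb1c was at 0.18 and 0.1 RPKM in ZnF4-/- and 0.27 and 0.24 RPKM in ZnF1-/-, against 0.43, 0.67 and 0.5 RPKM in wt. Klre1 was at 0.0 and 0.09 RPKM in ZnF4-/- and 0.15 and 0.06 RPKM in ZnF1-/-, against 0.13, 0.11 and 0.36 RPKM in wt. Eomes and Klra1 were thus higher in both ZnF4-/- libraries than in all others, for Klra1 by as little as 0.2 against 0.19 RPKM. Klrb1c was lower there than in all others, Klre1 was lower than in wt, and Ncr1 was neither. The part of these cells in the Id2 levels was not tested.

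Id1, which signals of the BMP family raise in many cells, lies on chromosome 2 at 152561987 to 152563146 on the plus strand (mm9). Its level was 0.97 and 1.26 RPKM in ZnF4-/- and 0.73 and 1.28 RPKM in ZnF1-/-, against 0.17, 1.45 and 1.02 RPKM in wt. The groups overlapped, and its mean of 0.983 RPKM was below the filter, so it was not tested. At the estimated depths these values stand for 5.59 reads in ZnF4-/- replicate 1, 9.52 in ZnF1-/- replicate 1 and 3.12 in wt replicate 1, so the 76 bp values rest on few reads.

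**Figure D2:**
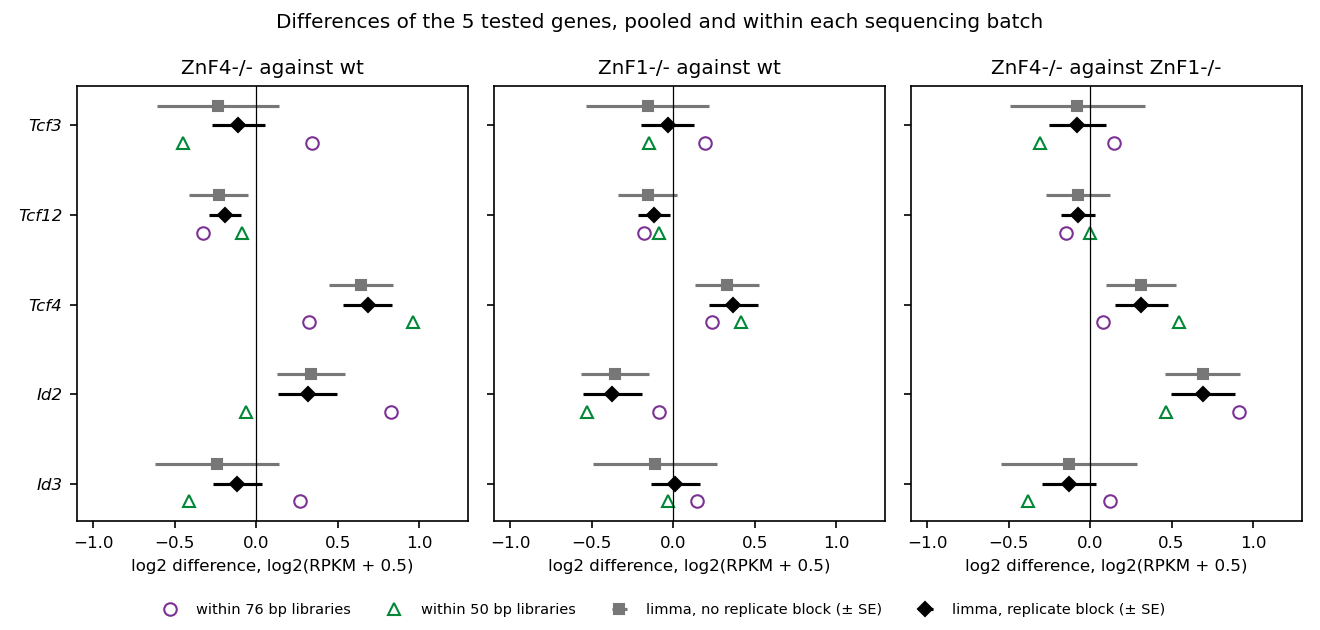
Log2 differences of the 5 tested genes on the log2(RPKM + 0.5) scale in the 3 comparisons, as limma estimates without the block (grey squares, ± SE) and with it (black diamonds, ± SE), and within 76 bp (circles) and 50 bp libraries (triangles). Tcf3 and Id3 lay on opposite sides of 0 in the batches of every comparison, while Tcf4 lay above 0 in both batches of every comparison.

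The direction for Tcf3, Id3 and Id2 in ZnF4-/- against wt was tested for a difference between the batches, taken as the 50 bp minus the 76 bp difference. It was -0.79 ± 0.19 for Tcf3 (limma adjusted p = 0.0208), -0.89 ± 0.22 for Id2 (limma adjusted p = 0.0288) and -0.68 ± 0.19 for Id3 (limma adjusted p = 0.0532). Tcf4 gave 0.64 ± 0.25 (limma adjusted p = 0.16) and Tcf12 0.24 ± 0.19 (limma adjusted p = 0.545). Thus 2 of the 5 passed, where 4.45% of all tested genes did. In ZnF1-/- against wt and in ZnF4-/- against ZnF1-/-, limma called 0 of the 5 unequal between batches, against 1.32% and 1.11% of all genes, and at an unadjusted p under 0.05 it held 0, with 8.85% of genes, and 2 (Tcf3 and Id3), with 9.66%. This test rests on the spread between wt 2A and 2B alone, apart from the spread borrowed from other genes.

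The batch difference moved with GC content. Tcf3 transcripts have 61.0% GC and Id3 transcripts 55.6%, in GC classes 5 and 4 when tested genes are split into 5 equal classes from low to high GC, while Tcf12 (45.1%) lies in class 2 and Id2 (42.4%) and Tcf4 (41.1%) in class 1. Tcf3 was higher at 50 bp than at 76 bp by 0.28 in ZnF4-/-, 0.74 in ZnF1-/- and 1.08 in wt, and Id3 by 0.33, 0.83 and 1.01 in the same groups. At least 0.9 log2 units higher at 50 bp in wt were 4.31% of tested genes. Over all genes of GC class 5 the median was 0.197 in ZnF4-/-, 0.408 in ZnF1-/- and 0.614 in wt, so the order of the groups was the same as for Tcf3 and Id3. After the GC correction the unequal difference of Tcf3 was -0.22 (limma adjusted p = 0.666) and that of Id3 was -0.35 (limma adjusted p = 0.373), while that of Id2 was -0.98 (limma adjusted p = 0.000173).

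**Figure D3:**
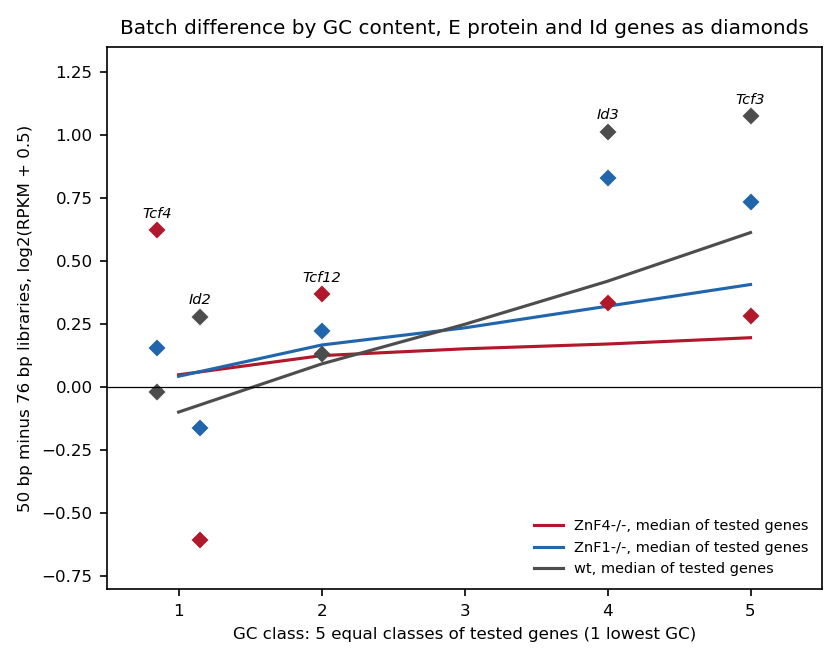
Difference between 50 bp and 76 bp libraries on the log2(RPKM + 0.5) scale, by GC class (5 equal classes of tested genes, 1 the lowest transcript GC), with lines for the median of all tested genes in each group and diamonds for 5 E protein and Id genes, in the group colours. The wt median climbs to 0.614 in class 5 while the ZnF4-/- median reaches 0.197 there, and Tcf3 and Id3 lie above the median of their class in every group.

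With the GC correction, Tcf3 was at 42.4 and 45.2 RPKM in ZnF4-/- and 40.7 and 49.2 RPKM in ZnF1-/-, against 43.1, 51.9 and 55.3 RPKM in wt. Tcf4 was at 8.82 and 13.7 RPKM in ZnF4-/- and 8.56 and 9.37 RPKM in ZnF1-/-, against 6.43, 6.67 and 7.25 RPKM in wt. Corrected Id2 was at 21.8 and 13.6 RPKM in ZnF4-/- and 11.5 and 9.66 RPKM in ZnF1-/-, against 11.4, 13.5 and 15.3 RPKM in wt. The correction narrowed the range of Tcf3 and left the order of the groups for Tcf4 and the high ZnF4-/- replicate 1 for Id2 in place. With the correction and the block, Tcf4 in ZnF4-/- against wt was 0.71 (limma adjusted p = 0.0108), and with the correction alone 0.66 (limma adjusted p = 0.0934).

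Tcf3 and Id3, an E protein and the Id that opposes it, kept nearly equal levels. The ratio of Tcf3 to Id3 RPKM was 1.08 and 1.04 in ZnF4-/- and 1.06 and 0.988 in ZnF1-/-, against 1.02, 1.03 and 1.11 in wt. Their log2 levels, less the mean of their batch, had a Pearson r of 0.955 over the 7 libraries. These points share libraries, depth and the GC trend described above, so r is a description. The same measure was 0.218 between Id2 and Id3 and -0.549 between Tcf12 and Tcf4.

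**Figure D4:**
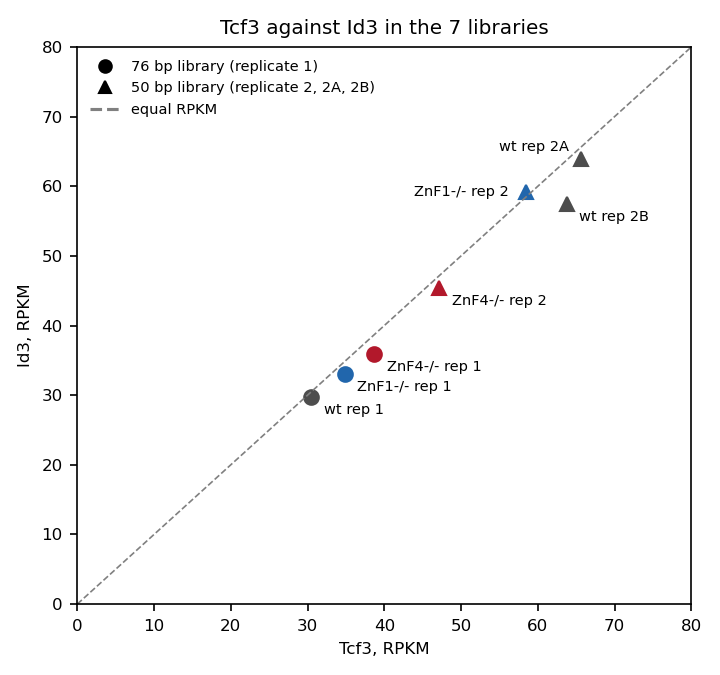
Id3 RPKM against Tcf3 RPKM in each of the 7 libraries, with ZnF4-/- in red, ZnF1-/- in blue and wt in grey, circles for 76 bp and triangles for 50 bp libraries, and a dashed line for equal RPKM. The libraries run along the line from wt replicate 1, at 30.45 and 29.75 RPKM, to wt replicate 2A, at 65.67 and 63.92 RPKM.

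The E protein to Id balance was taken as the summed RPKM of Tcf3, Tcf4 and Tcf12 over the summed RPKM of Id1, Id2 and Id3. It was 2.13 and 2.65 in ZnF4-/- and 2.85 and 2.37 in ZnF1-/-, against 3.20, 2.22 and 2.42 in wt. The groups overlapped, with means of 2.39 ± 0.368 in ZnF4-/- and 2.61 ± 0.339 in ZnF1-/- (SD, n = 2 each) and 2.61 ± 0.518 in wt (SD, n = 3). The log2 balance differed from wt by -0.12 in ZnF4-/- and by 0.01 in ZnF1-/-, both smaller than the spread between libraries of a group. No p was computed for this sum.

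Within replicate number 1, the balance was lower in both mutants than in wt, by -0.59 in ZnF4-/- and -0.17 in ZnF1-/- on the log2 scale. Within the 50 bp libraries it was 0.19 higher in ZnF4-/- and 0.03 higher in ZnF1-/- than in wt. The balance of ZnF4-/- therefore lay on opposite sides of wt in the batches. With the GC correction and without Id1 it was 2.16 and 2.7 in ZnF4-/- and 2.88 and 2.51 in ZnF1-/-, against 3.03, 2.32 and 2.47 in wt, so the order within each batch between ZnF4-/- and wt was as before.

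**Figure D5:**
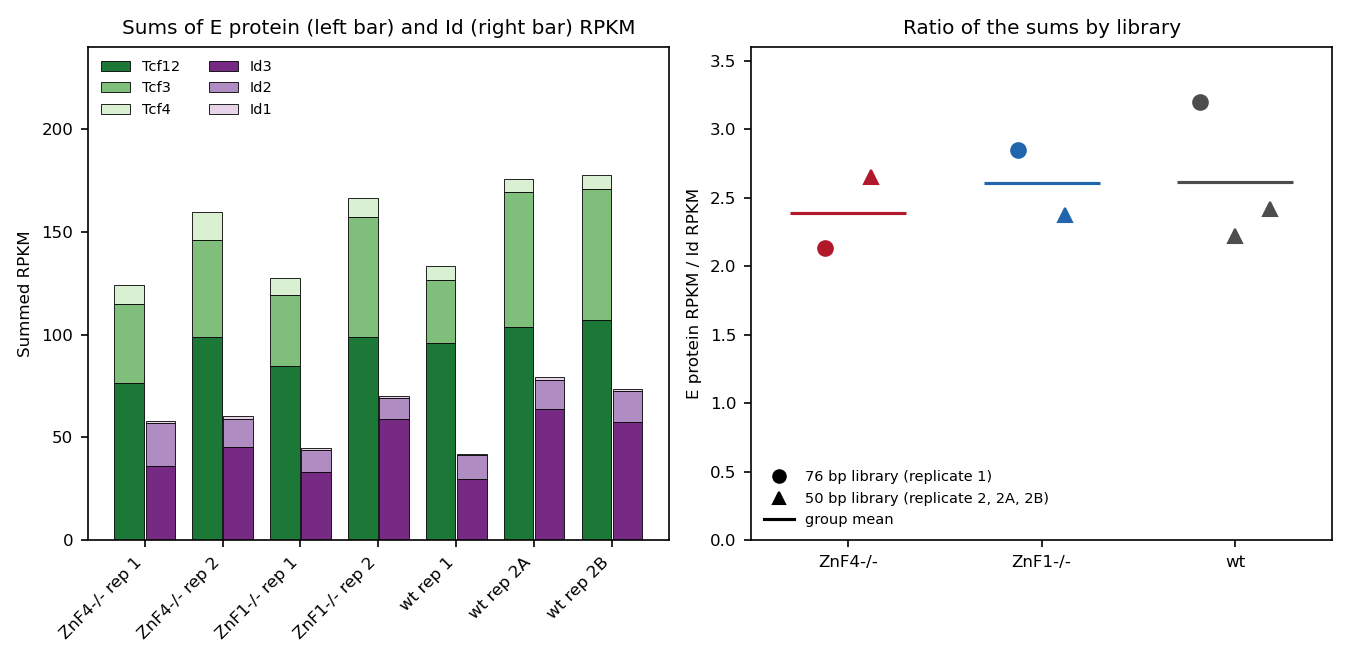
Left, summed RPKM of the E proteins (green, left bar) and Id genes (purple, right bar) in each library, stacked by gene. Right, the ratio of the sums by group, with circles for 76 bp and triangles for 50 bp libraries and lines for group means, which lie between 2.39 and 2.61.

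The Id sum moved the 76 bp balance more than the E protein sum did. In the 76 bp libraries the E proteins summed to 123.8 RPKM in ZnF4-/- and 127.8 in ZnF1-/-, against 133.4 in wt. The Id genes summed to 58.12 RPKM in ZnF4-/- and 44.79 in ZnF1-/-, against 41.69 in wt, and Id2 made up 36.5% of the Id sum in ZnF4-/- replicate 1, 24.6% in ZnF1-/- replicate 1 and 28.2% in wt replicate 1. At 50 bp, Id2 made up 22.8% in ZnF4-/- and 14.0% in ZnF1-/-, against 17.5% and 20.3% in wt. Tcf4 made up 7.09% and 8.63% of the E protein sum in ZnF4-/- and 6.48% and 5.57% in ZnF1-/-, against 5.2%, 3.81% and 3.92% in wt. The share of Tcf4 was thus higher in all 4 mutant libraries, and that of Tcf12 stayed between 58.9% and 72.0% over the 7 libraries.

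Partners and genes on either side of the E proteins were read from lists. Of 14 bHLH and LMO partners, 7 were tested and limma called 0 in all 3 comparisons, with and without the block; their median log2 difference in ZnF4-/- against wt was -0.10, against -0.05 over all tested genes. Tal1, a bHLH partner that blocks E proteins in T cell leukaemia, was at 0.09 to 0.11 RPKM in ZnF4-/- and 0.06 to 0.1 RPKM in ZnF1-/-, against 0.01 to 0.04 RPKM in wt. Tal1 was thus near 0 in every library, below the filter, and was not tested. Lyl1, a relative of Tal1, was at 0.8 to 1.25 RPKM in ZnF4-/- and 1.38 to 1.78 RPKM in ZnF1-/-, against 0.68 to 1.07 RPKM in wt.

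Of 11 thymic genes under E protein control, all tested, 1 rose in ZnF4-/- against wt, and with the block 3 rose. Over all tested genes, 2.24% rose, and with the block 6.1%. The median difference of the 11 was 0.055, against -0.05 over all tested genes. Rag1 was at 644.15 and 783.69 RPKM in ZnF4-/- and 821.86 and 865.28 RPKM in ZnF1-/-, against 874.99, 965.21 and 925.96 RPKM in wt. Rag2 was at 58.07 and 66.04 RPKM in ZnF4-/- and 68.09 and 83.36 RPKM in ZnF1-/-, against 77.49, 74.95 and 87.91 RPKM in wt. In ZnF4-/- both lay below all wt libraries, as did 10.6% of tested genes, and limma called 0 of the 11 as lower, with and without the block. Cdkn1a, a cell cycle inhibitor, rose to 8.20 and 8.38 RPKM in ZnF4-/-, against 3.51, 1.99 and 3.14 RPKM in wt (log2 1.41 ± 0.22, limma adjusted p = 0.0217). Without the block, that call was lost without either ZnF4-/- library or without wt 2B, where limma adjusted p reached 0.166, and with the block it was kept without each of the 7 libraries, where the highest was 0.0234. With the block, Notch1, the receptor that commits cells to the T lineage, was higher by 0.96 (limma adjusted p = 0.00871) and Socs3, an inhibitor of cytokine signalling, by 0.79 (limma adjusted p = 0.0297). The blocked Notch1 call was lost without wt 2B (limma adjusted p = 0.0523), and the Socs3 call without wt replicate 1, wt 2B or ZnF4-/- replicate 1 (highest limma adjusted p = 0.125). In ZnF4-/- against ZnF1-/- limma called 0 of the 11, and with the block 2 rose (Notch1 and Ptcra), where 5.19% of tested genes did. Leaving out 1 library ended the Notch1 call once (ZnF1-/- replicate 1, limma adjusted p = 0.104) and the Ptcra call in 4 of 7 cases (either ZnF1-/- library, ZnF4-/- replicate 1 or wt 2B, up to 0.369). In ZnF1-/- against wt it called 0 of the 11, with and without the block.

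Markers of double-negative thymocytes, the stage before CD4 and CD8, were measured beside Notch1. The 6 markers (Il2ra, Kit, Cd44, Ptcra, Notch1 and Hes1, of which Notch1, Ptcra and Hes1 are also in the list of genes under E protein control) summed to 145.6 to 149.2 RPKM in ZnF4-/- and 74.23 to 112 RPKM in ZnF1-/-, against 81.46 to 122.5 RPKM in wt. Kit, the stem cell factor receptor, was at 4.12 and 4.69 RPKM in ZnF4-/- and 2.66 and 2.85 RPKM in ZnF1-/-, against 2.02, 2.31 and 2.08 RPKM in wt, and rose in ZnF4-/- against wt (log2 0.90 ± 0.15, limma adjusted p = 0.0267). That call was lost without each of the 7 libraries in turn (limma adjusted p between 0.0538 and 0.203) and was kept in all 7 cases with the block (highest limma adjusted p = 0.0295). With the block Kit and Notch1, 2 of the 6, rose in that comparison, where 6.1% of tested genes did. Notch1 itself made up most of the ZnF4-/- sum, at 82.52 and 92.99 RPKM, against 34.58, 63.22 and 49.58 RPKM in wt. Il2ra went the other way and was not called. It was at 13.67 and 9.72 RPKM in ZnF4-/- and 14.35 and 21.22 RPKM in ZnF1-/-, against 17.21, 16.04 and 15.1 RPKM in wt. Of the 6 double-positive markers, limma called 0 without the block. With the block Cd8a was lower in ZnF4-/- than in wt (log2 -0.51, limma adjusted p = 0.0479), where 2.12% of tested genes fell. Cd8a (-0.685, limma adjusted p = 0.0222) and Cd8b1 (-0.553, limma adjusted p = 0.046) were lower than in ZnF1-/-, where 2.1% fell. Leaving out 1 library ended these calls in 6, 4 and 6 of 7 cases. The part of double-negative cells in the Notch1 and Cdkn1a levels was not tested.

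Of 8 genes that T cell receptor signals induce upstream of or with Id3, all tested, limma called 0 in all 3 comparisons, and their median in ZnF4-/- against wt was 0.06. With the block 2 of the 8 rose in ZnF4-/- against wt, the nuclear receptor Nr4a3 by 0.83 (limma adjusted p = 0.00409) and Egr3 by 0.70 (limma adjusted p = 0.0443), and Nr4a3 rose in ZnF4-/- against ZnF1-/- by 0.68 (limma adjusted p = 0.0162). Over all tested genes, 6.1% and 5.19% rose with the block in these comparisons. Against wt the blocked Nr4a3 call was kept without each library (highest limma adjusted p = 0.0175) and the Egr3 call was lost without any 1 of the wt libraries or ZnF4-/- replicate 1 (up to 0.145). Against ZnF1-/- the Nr4a3 call was lost without either ZnF1-/- library or ZnF4-/- replicate 1 (up to 0.152). Egr1, which induces Id3, was at 44.57 and 54.48 RPKM in ZnF4-/- and 34.02 and 57.01 RPKM in ZnF1-/-, against 32.46, 53.71 and 61.96 RPKM in wt. As with Id3, wt held both the lowest and the highest library, the lowest at 76 bp and the highest at 50 bp. In each group Egr1 was higher at 50 bp than at 76 bp, and a link between Egr1 and Id3 was not tested.

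Of 11 tested genes of BMP and TGF-beta signalling, 1 rose in ZnF4-/- against wt and 2 in ZnF4-/- against ZnF1-/-, and with the block 4 and 5 rose. Over all tested genes, 2.24% and 2.02% rose in these comparisons, and with the block 6.1% and 5.19%. Their median in ZnF4-/- against wt was 0.03. Bmpr2, a BMP receptor, rose to 4.43 and 4.58 RPKM in ZnF4-/-, against 2.20, 1.64 and 1.81 RPKM in wt (log2 1.08 ± 0.18, limma adjusted p = 0.0249). Without the block, that call was lost without either ZnF4-/- library, wt 2A or wt 2B, where limma adjusted p reached 0.175. Against ZnF1-/- the Bmpr2 call was lost in 5 of 7 cases (all but wt replicate 1 and wt 2A, up to 0.187) and the call of Acvrl1, another receptor of the family, in 6 of 7 (all but wt replicate 1, up to 0.207). With the block the calls of Bmpr2 and Smad7 against wt were kept in all 7 cases (highest limma adjusted p = 0.04 and 0.0376). Smad7, an inhibitor of the pathway, was higher by 1.10 with the block (limma adjusted p = 0.00584). Smad3, a signal carrier of TGF-beta, fell by 0.63 in ZnF1-/- against wt with the block (limma adjusted p = 0.0248; lost without each library of those groups, up to 0.292), the only gene of this list called there. Id1, a target of this pathway, was not tested, as given above.

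Of 10 innate-like T cell genes known to rise when E protein or Id activity is altered, 5 were tested, with a median of 0.37 in ZnF4-/- against wt. Klrd1, an NK receptor, rose to 3.76 and 3.78 RPKM in ZnF4-/-, against 1.02, 0.84 and 0.68 RPKM in wt (log2 1.67 ± 0.19, limma adjusted p = 0.00477). It was the only one of the 5 called in ZnF4-/- against wt without the block, and that call was kept without each library in turn (limma adjusted p between 0.00773 and 0.0492). With the block Il2rb, a subunit of the IL-15 receptor, was also higher, by 1.38 (limma adjusted p = 0.00029), and Slamf6 fell by 0.50 (limma adjusted p = 0.0205). Over all tested genes, 2.24% rose in ZnF4-/- against wt without the block, and with it 6.1% rose and 2.12% fell. The blocked Il2rb call was kept in all 7 cases (highest limma adjusted p = 0.00292) and the Slamf6 call was lost in 5 of 7 (all but wt replicate 1 and ZnF4-/- replicate 1, up to 0.135). In ZnF4-/- against ZnF1-/- 2 of the 5 rose, Klrd1 and Sox13, and with the block 3 did, where 2.02% and 5.19% of tested genes rose. Without the block, the Klrd1 call was kept in all 7 cases (highest limma adjusted p = 0.0431) and the Sox13 call was lost in 6 of 7 (all but wt replicate 1, up to 0.227). Without the block limma called 0 of the 5 in ZnF1-/- against wt, and with it Sox13 fell by 0.97 (limma adjusted p = 0.0242; lost without each library of those groups, up to 0.186). Zbtb16, the factor that marks innate-like T cells, was at 0.43 and 0.41 RPKM in ZnF4-/- and 0.08 and 0.11 RPKM in ZnF1-/-, against 0.54, 0.74 and 0.57 RPKM in wt. Zbtb16 was thus low in every library and was not tested.

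The genes closest in pattern were ranked by the Pearson r of batch-centred log2 levels over the 7 libraries. They were Kdm3a (0.9934) for Tcf12, Dctn3 (0.9953) for Tcf3, Gbp2 (0.9976) for Tcf4, Ap2s1 (0.9945) for Id3 and Cyfip2 (0.9753) for Id2, followed by Map3k12 and Prkd3 for Tcf12, Psmg1 and Sf3b5 for Tcf3, Itgb1 and Sfmbt2 for Tcf4, 5430416N02Rik and Trim28 for Id3, and Ngfrap1 and Dusp10 for Id2. Gbp2, closest to Tcf4, was at 12.92 and 18.96 RPKM in ZnF4-/- and 12.2 and 11.52 RPKM in ZnF1-/-, against 10.39, 7.90 and 8.24 RPKM in wt. As with Tcf4, all 4 mutant libraries lay above wt and ZnF4-/- replicate 2 was the highest. These likenesses were the highest of 10498 genes and are a description.

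Ordered by level, Tcf12 was above Tcf3 in 7 of 7 libraries, Tcf3 above Id3 in 6 of 7, Id3 above Id2 in 7 of 7, Id2 above Tcf4 in 6 of 7 and Tcf4 above Id1 in 7 of 7. The ranges of Tcf3 and Id3 overlapped, as did those of Id2 and Tcf4, and those of the other neighbours did not. Tcf4 and Id2 changed places in ZnF4-/- replicate 2, at 13.80 and 13.79 RPKM.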

How the data were processed

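The deposited table gave RPKM per gene, calculated by the authors from exonic reads in SeqMonk with the NCBI mm9 annotation, per the series design text. TopHat and bedtools are named in the submitters' processing notes, and their versions and the strand of the libraries are not given in the sources used here. The authors kept genes with at least 1 read in at least 1 library and 1 transcript per gene. Only RPKM were available, so no count test was run.

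Values were taken as log2(RPKM + 0.5), which understates the fold changes of low genes. Genes averaging 1 RPKM or more across all 7 libraries, 10498 in number, entered 1 fit of the 3 groups in limma 3.58.1 under R 4.3.3, with moderated variances that follow the mean level. Each p was two-sided and was adjusted for all tested genes of a comparison (Benjamini-Hochberg), and 0.05 was the threshold. The errors given for log2 differences are standard errors from that fit, and errors of RPKM are SD. By the levels of Xist and Ddx3y, replicate 1 of each group did not come from the same animal as the other replicates of that group. Whether wt 2A and 2B came from separate animals is not stated in the labels, and the spread between them may be technical. The p-values reflect only the spread among these 7 samples. A permutation of 3 against 2 libraries cannot give a p below 0.1, and none was run.

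The labels' protocols give replicate 1 of each group 76 bp reads from an older instrument and the other replicates 50 bp reads from a newer one. A shared replicate number is thus a shared sequencing run type. In all 8 pairs of same-numbered libraries from different groups, departures from group means were correlated over genes, with r between 0.489 and 0.737. A second fit had the number as a block, and another, the batch test, asked whether a genotype difference was unequal between the batches. The batch test has 1 residual degree of freedom, from wt 2A and 2B, and 16.76 prior degrees of freedom. In a GC correction the median deviation of genes of similar transcript GC content, in 20 bins, was removed from each library (9977 of the tested genes, 95.0%, had a GC value). It, the batch test and the leaving out of libraries under the block were added after the data had been seen.

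Other alternatives were pseudocounts of 0.1 and 1, no filter, scaling to a common median, quantile normalization, fits of only the groups compared, wt 2A and 2B averaged, and each library left out in turn. The fits were tested on simulated libraries with known changes in ZnF4-/-. Without the block, 27% of log2 changes of 1 and 90% of log2 changes of 2 were called against wt. With the block 97% and 100% were called. Calls among unchanged genes were 1 without the block and 16 with it. Smaller changes, such as those of the E protein and Id genes, were not simulated. The genes named were the 6 E protein and Id genes, genes of related lists that passed a fit, the 3 genes closest in pattern to each of the 5 tested genes, and Ikzf1. Tal1, Lyl1, Egr1, Zbtb16, Siglech, Spib, Irf8, Ncr1, Eomes and Klra1 were named after their values had been seen. So were Klrb1c, Klre1, Cox6a2, Pacsin1, Il2ra, Rag1, Rag2, Lyz2, Cd68, Ebf1, Ms4a1 and Pax5. Some genes of the lists are not reported here, and the counts, medians and sums of those lists leave them out. The genes and lists were chosen with earlier results of these data known. Gene positions are from GENCODE on NCBIM37 (mm9), and promoter sequences are from RefSeq on GRCm38.p6, without conversion between the builds.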

Additional observations from a re-analysis of the deposited data

Results flagged for a closer look

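In ZnF4-/- against wt, Tcf3 differed between the batches by -0.79 on the log2 scale (50 bp minus 76 bp, limma adjusted p = 0.0208) and Id2 by -0.89 (limma adjusted p = 0.0288). Of the 5 tested genes, only these were called unequal between the replicate numbers, as were 4.45% of all tested genes. Both calls were lost without the filter and after quantile normalization. The Tcf3 call was also lost at a common median and after GC correction. The log2 E protein to Id balance of ZnF4-/- lay below wt at 76 bp and above it at 50 bp, a gap of 0.78, and likewise below and above ZnF1-/-, a gap of 0.58. The difference of the balance between batches was not tested, and batch, sex and replicate cannot be told apart.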

How the results depend on the processing

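Pairing by replicate number raised the calls over all genes: with the block they were 863 in ZnF4-/- against wt, 92 in ZnF1-/- against wt and 765 in ZnF4-/- against ZnF1-/-, against 267, 9 and 246 without it. The block called 1 of the 5 tested E protein and Id genes (Tcf4 in ZnF4-/- against wt), also after GC correction (1), and changed no other call among them. GC correction gave 608, 34 and 547 calls over all genes, and 1244, 191 and 1074 with the block. No filter gave 621, 4 and 594. Averaging wt 2A and 2B gave 127 and 1 in the comparisons with wt. In ZnF1-/- against wt, a common median gave 17, quantile normalization 14 and a fit of the compared groups alone 5. Leaving out each library gave 105 to 239, 1 to 10 and 103 to 306 calls over all genes, and 0 of the 5 in each comparison. With the block it gave 0 to 1 of the 5 in ZnF4-/- against wt and against ZnF1-/-. The 1 against ZnF1-/- was Id2 without wt replicate 1 (adjusted p = 0.0172) or ZnF4-/- replicate 2, and Tcf4 without ZnF4-/- replicate 1 (adjusted p = 0.049).

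Tcf3 and Id3 differences changed sign. In ZnF1-/- against wt, Tcf3 was 0.023 with 2A and 2B averaged and Id3 was 0.056, and Id3 was 0.013 with the block. Leaving out a library gave -0.525 to 0.212 for Tcf3 and -0.528 to 0.303 for Id3, and with the block -0.26 to 0.033 and -0.159 to 0.095, where Id3 was 0.063 without ZnF1-/- replicate 1, 0.044 without either ZnF4-/- library and 0.018 without wt 2B. In ZnF4-/- against wt the blocked ranges were -0.404 to 0.244 for Tcf3 and -0.387 to 0.215 for Id3. In ZnF4-/- against ZnF1-/- the ranges were -0.447 to 0.29 for Tcf3, -0.545 to 0.286 for Id3 and -0.259 to 0.111 for Tcf12, and with the block -0.403 to 0.245, -0.431 to 0.172 and -0.174 to 0.026. The cause was not tested. Tcf4 and Id2, and Tcf12 against wt, kept their direction in every alternative run, in some only barely. Without ZnF4-/- replicate 1, Id2 in ZnF4-/- against wt was 0.033, and 0.002 with the block. Within the 50 bp libraries it was -0.06. Without ZnF4-/- replicate 2, Tcf4 in ZnF4-/- against ZnF1-/- was 0.002. The unequal batch difference in ZnF4-/- against wt was lost for Tcf3 without the filter (adjusted p = 0.176), at a common median (0.0517), after quantile normalization (0.0986) and after GC correction, and for Id2 without the filter (adjusted p = 0.21) and after quantile normalization (0.102). Depth is unknown for the 50 bp libraries, and Id1 rests on few reads at 76 bp.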

Other observations

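Mature single-positive thymocyte genes moved beside the E protein and Id genes. S1pr1, the receptor by which thymocytes leave the thymus, averaged 23.6 RPKM in ZnF4-/-, against 11.1 RPKM in wt (log2 1.05 ± 0.18, limma adjusted p = 0.0283). That call was lost without either ZnF4-/- library, wt 2A or wt 2B, where limma adjusted p reached 0.221, and with the block it was kept without each of the 7 libraries (highest limma adjusted p = 0.00491). With the replicate block Ccr7, which guides cells into the medulla, was also higher, by 1.04 (limma adjusted p = 0.000573), as was Il7r, by 0.64 (limma adjusted p = 0.0269). Over all tested genes, 2.24% rose in that comparison, and with the block 6.1%. The Ccr7 call was kept without each library (highest limma adjusted p = 0.00726), and the Il7r call was lost without wt 2A, wt 2B or ZnF4-/- replicate 2 (up to 0.178). In ZnF1-/- against wt, limma called 0 of the 6 genes of this list with and without the block.

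Among B cell markers in ZnF4-/- against ZnF1-/-, Cd79a averaged 1.88 RPKM in ZnF4-/- and 0.425 RPKM in ZnF1-/- (log2 1.37 ± 0.20, limma adjusted p = 0.0148). Cd79b went the other way, at 11.3 RPKM in ZnF4-/- and 30.2 RPKM in ZnF1-/- (log2 -1.36 ± 0.21, limma adjusted p = 0.0189). Leaving out 1 library ended the Cd79a call in 5 of 7 cases (all but wt replicate 1 and wt 2A, up to 0.118) and the Cd79b call in 4 of 7 (either ZnF4-/- library, wt 2B or ZnF1-/- replicate 2, up to 0.132). With the block both calls were kept in all 7 cases (highest limma adjusted p = 0.0231 and 0.00759).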
